A study of Mus musculus with 32 samples.

Results

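Polysome loading was examined at baseline in 4T1 spheroids (4T1 is a carcinoma line of the mouse mammary gland) that carried the scramble control shRNA and received no added aspartate (NoASP shSCR). The libraries were chosen by their labels: 4 spheroid pellets, each of which gave a polysomal and a sub-polysomal library, make 8 of the 32 libraries of the series. The other 24 came from spheroids grown with 700 μM added aspartate and a scramble shRNA (ASP shSCR), an shRNA against Grin2d, which encodes an NMDA receptor subunit (ASP shGRIN2D), or an shRNA against Dhps, which encodes deoxyhypusine synthase (ASP shDHPS), with 8 libraries each. All spheroids were grown for 5 days in a medium that imitates lung interstitial fluid, and all were washed with cycloheximide, which holds ribosomes on the mRNA, before lysis. The whole series rests on 1 cell line, whose shRNA-carrying cells were selected with puromycin as polyclonal pools, and the 4 pellets of a condition were independent of each other.

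In polysome profiling, a lysate is spun through a sucrose gradient, so that an mRNA sinks according to the number of ribosomes it carries. The study pooled mRNA with more than 3 ribosomes as polysomal and mRNA with fewer than 3 as sub-polysomal. An open reading frame has room for more ribosomes when it is longer. mRNAs of ribosomal proteins and elongation factors begin with a pyrimidine run, the 5′ terminal oligopyrimidine or TOP motif, and are held back from ribosomes when mTOR signalling is low. Ferritin mRNAs are held back by iron regulatory proteins when iron is low. Upstream open reading frames and noncoding transcripts are other known reasons for a transcript to carry few ribosomes. RNA was sequenced after a stranded mRNA library preparation, and no spike-in was used in the values here, so every ratio below is relative to the other mRNAs of the same libraries and the absolute share of an mRNA on polysomes is unknown.

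The 4 polysomal libraries held 19357595, 21649049, 19270667 and 17410032 counts, and the 4 sub-polysomal libraries held 17801801, 18089199, 19684386 and 12870563 counts, in the order of pellets 1 to 4. The shallowest library was the sub-polysomal one of pellet 4. The fraction labels were checked on an axis set by the other 3 conditions, from 0 at their average sub-polysomal profile to 1 at their average polysomal profile. Positions of the NoASP shSCR libraries ran from 0.984 to 1.27 in the polysomal and from −0.0013 to 0.121 in the sub-polysomal fraction, without overlap. The log2 ratios of the pellets, over 10009 genes with a mean of at least 100 counts, correlated across genes with Pearson's r between 0.861 (pellets 2 and 4) and 0.935 (pellets 1 and 2); genes are not independent replicates, and this is a description of how alike the pellets were.

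Keratin and epithelial adhesion markers matched an epithelial carcinoma line. The keratin mRNAs Krt8 and Krt18 had medians of 23348.5 and 20939.5 counts over the 8 libraries, and the epithelial adhesion genes Epcam and Cdh1 had medians of 9738.0 and 4310.0 counts. The leukocyte gene Ptprc had 0 to 12 counts, the endothelial gene Pecam1 2 to 11 and the haemoglobin gene Hba-a1 0 to 10. Cd68 (78 to 267 counts) and Pdgfra (155 to 621 counts) were detected at a low level in every library. The marker list also held Erbb2 and Esr1, as receptor genes absent from triple-negative breast cancer cells. Both were detected in every library, Erbb2 with 907 to 2987 counts and Esr1 with 56 to 135. In bulk libraries, fewer cells that express a gene and less of its RNA per cell cannot be told apart. Cd3e, Lyz2, Dcn, Lum, Cdh5 and Pgr were not among the genes analysed here.

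The question was which mRNAs lie with many ribosomes and which do not when no aspartate is added. Of 17757 genes, 4208 (23.7%) were higher in the polysomal fraction and 3658 (20.6%) were lower, by edgeR's quasi-likelihood test with the pellet as a block and an adjusted p under 0.05. Among the 10009 genes with a mean of at least 100 counts, 3820 (38.2%) were higher and 2816 (28.1%) were lower, 66.3% in either direction, and their median log2 ratio was 0.21 against 0.00 over all genes. These shares are the background for each group below. The spread of ratios was wide on the lower side: 786 genes were at least 4-fold lower in the polysomal fraction and past the threshold, and 174 were at least 4-fold higher. Of the 7866 genes past the threshold, 7712 had the same direction in each of the 4 pellets.

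**Figure D1:**
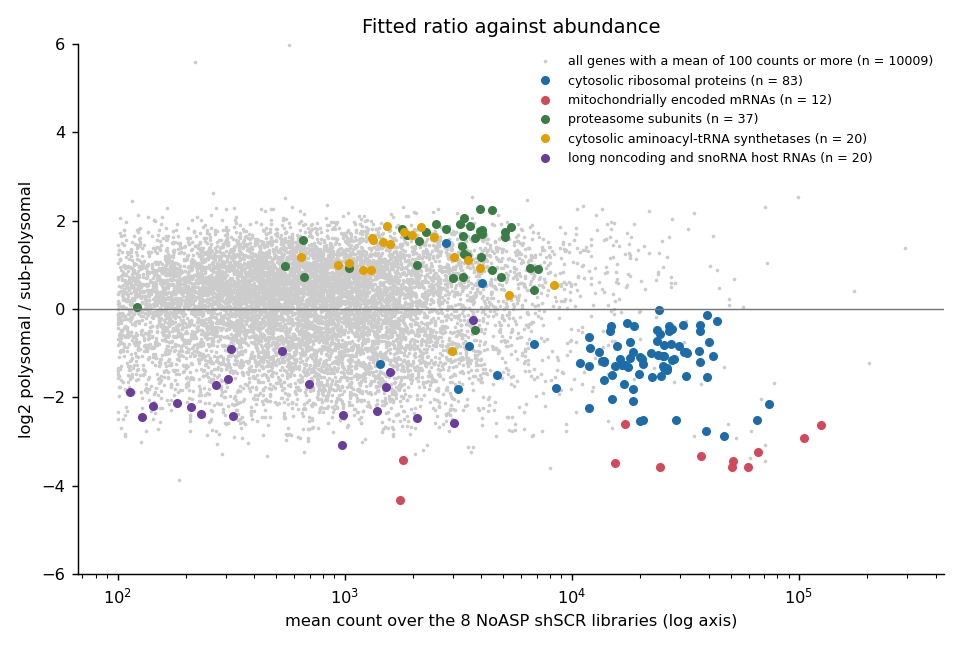
Fitted log2 polysomal to sub-polysomal ratio (vertical axis) against the mean count over the 8 libraries (horizontal log axis) for genes with a mean of at least 100 counts; each point is a gene, and 5 gene lists are coloured. Mitochondrially encoded mRNAs lie below 0, most ribosomal protein mRNAs do too (2 were higher by the test), proteasome and aminoacyl-tRNA synthetase mRNAs mostly lie above it, and 1 gene, Exosc6, lies below the lower end of the axis.

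Among the 12 genes with the highest ratio that met the naming rule, Spp1, which encodes osteopontin, a secreted phosphoprotein, was also among the 10 most abundant. It had 8016, 7901, 8370 and 9153 CPM (counts scaled to the library size) in the polysomal libraries of pellets 1 to 4 and 1461, 1598, 1569 and 1192 CPM in the sub-polysomal ones. Every polysomal library stood above every sub-polysomal library, and the log2 ratio was 2.53 ± 0.21 (SE), or 5.77-fold (adjusted p = 9.1e-09). Hnrnpa2b1, which encodes an RNA-binding protein of mRNA processing, had 1059.5, 578, 1041 and 1146 polysomal CPM and 183, 156, 220.1 and 181 sub-polysomal CPM. Its fractions did not overlap, its log2 ratio was 2.33 ± 0.22, and pellet 2 was lowest in both fractions. Ctsl, the lysosomal protease cathepsin L, had 5433, 4759, 6642 and 6920 polysomal CPM against 1051, 1102, 1430 and 1223 sub-polysomal CPM, a log2 ratio of 2.30 ± 0.20. Others of the 12 were Gsta4, a glutathione S-transferase (2.47), Rpf2, a ribosome assembly factor (2.35), Nasp, a histone chaperone (2.32), Ptgr1, a reductase of prostaglandins (2.31), Fbp2, a fructose bisphosphatase (2.30), Cth, cystathionine gamma-lyase (2.28), Asb3 (2.28) and Psmc2, an ATPase of the proteasome (2.27). In each of the 12 genes the fractions did not overlap, as in 34.8% of the genes with a mean of at least 100 counts.

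**Figure D2:**
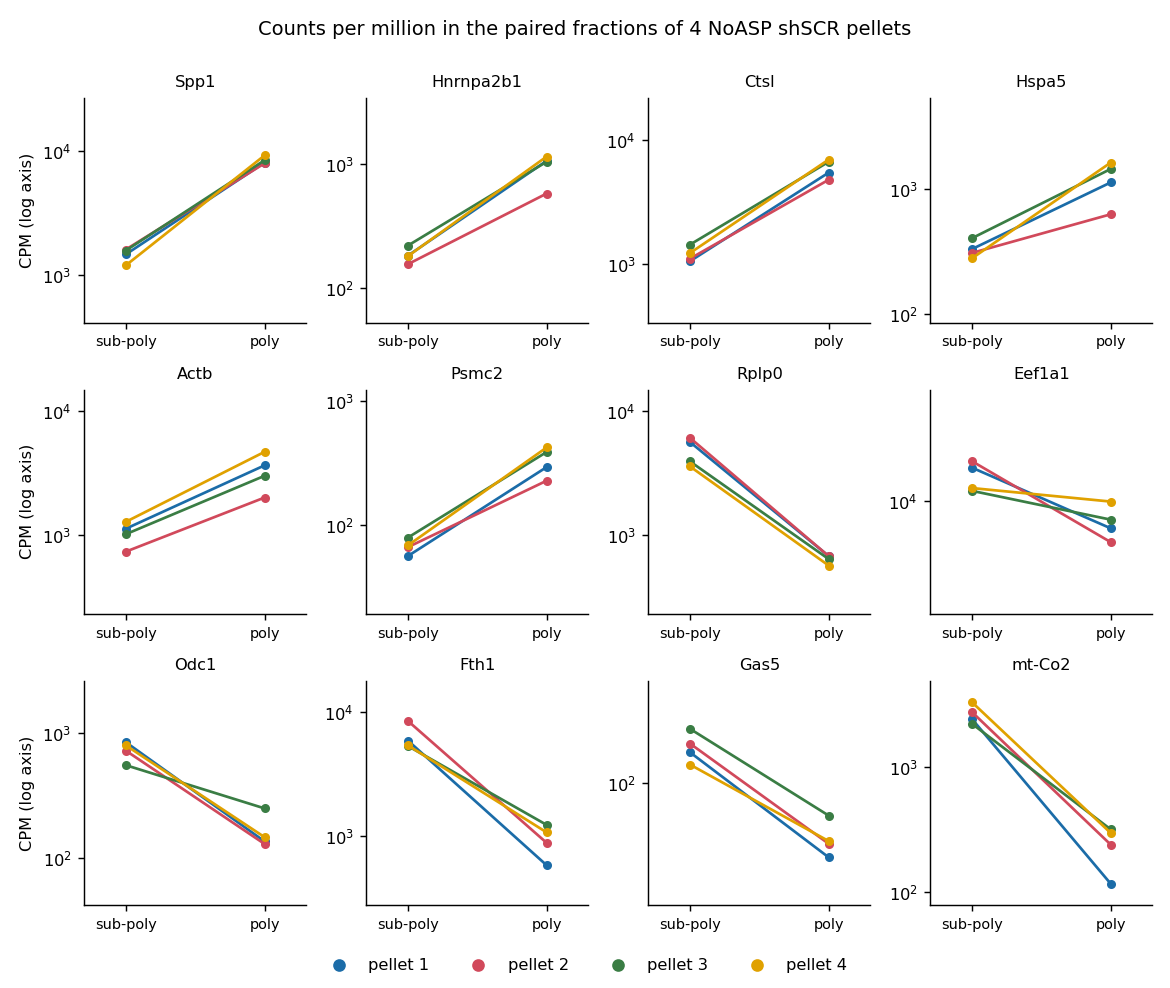
CPM, the counts scaled to the library size (vertical log axis, spanning the same number of log units in every panel) of 12 genes in the sub-polysomal and polysomal library of each pellet; a line joins the libraries of 1 pellet. The lines of Spp1, Hnrnpa2b1, Ctsl, Hspa5, Actb and Psmc2 rise towards the polysomal library and those of Rplp0, Eef1a1, Odc1, Fth1, Gas5 and mt-Co2 fall in each of the 4 pellets, with the line of pellet 4 the flattest for Eef1a1 and that of pellet 3 the flattest for Odc1.

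Of the 29 lists, proteasome subunits, which degrade ubiquitin-tagged proteins, had the highest median. Of 37 measured proteasome subunit mRNAs, 34 were higher in the polysomal fraction, none was lower, and 3 (Psmd8 at −0.47, Psmb9 at 0.05 and Psma7 at 0.43) did not pass the test. Their median log2 ratio was 1.57, with pellet medians of 1.61, 1.36, 1.44 and 1.76, against 0.21 over all genes with a mean of at least 100 counts. The highest were Psmc2 (2.27), Psma2 (2.24), a subunit of the catalytic core, and Psmc5 (2.05), another ATPase of the regulatory cap. As a share of all counts, the list made up 0.958%, 0.950%, 1.00% and 0.990% of the polysomal libraries and 0.326%, 0.319%, 0.420% and 0.377% of the sub-polysomal ones. The share was higher in 4 of 4 pellets, which gives an exact paired permutation p of 0.125 (two-sided), the smallest that 4 pairs allow. Heat shock chaperones, a list named cytosolic in the plot that also holds the mitochondrial Hspd1, Hspe1, Hspa9 and Trap1, had 24 of 30 members higher and 1 lower (median 1.28), with Hsp90aa1, the inducible form of HSP90, at 1.96 ± 0.22. The constitutive chaperone mRNAs Hspa8 (0.10 ± 0.29) and Hsp90ab1 (0.23 ± 0.28) did not pass the test, and their fractions overlapped. Hspe1, the small partner of the mitochondrial chaperonin, was the member that fell (−0.80 ± 0.23).

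The chaperones and folding enzymes of the endoplasmic reticulum were mixed: 12 of 26 were higher, 4 were lower and the median was 0.38. Hspa5, which encodes the chaperone BiP, had 1139, 631, 1461 and 1646 polysomal CPM and 331, 308, 405 and 279 sub-polysomal CPM, without overlap. Its log2 ratio was 1.81 ± 0.23, close to those of Hsp90b1, which encodes GRP94 (1.94 ± 0.20), and Pdia6, a protein disulfide isomerase (2.12 ± 0.20). Calr, the lectin chaperone calreticulin, was at 1.25 ± 0.20, and Creld2 (−1.03 ± 0.20) was the lowest member.

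Aminoacyl-tRNA synthetases, ribosome biogenesis genes and initiation factors each had more members higher than lower. Of 20 cytosolic aminoacyl-tRNA synthetases, which load amino acids onto tRNA, 17 were higher and 1 was lower, with a median of 1.18. Hars (histidine, 1.89 ± 0.18), Dars (aspartate, 1.86) and Farsa (phenylalanine, 1.74) were the highest, Kars (0.32) and Vars (0.53) did not pass, and Qars (glutamine) was the member that fell, at −0.94 ± 0.24. Of 46 nucleolar and ribosome biogenesis genes, 38 were higher and 3 were lower (median 1.10). Nolc1, a nucleolar phosphoprotein, was the highest at 1.90 ± 0.24, and the abundant nucleolar proteins Ncl and Npm1 were at 1.44 ± 0.25 and 0.85 ± 0.22. Of 43 translation initiation factors, 27 were higher and 6 were lower (median 0.69). Eif2b3, a subunit of the exchange factor that recycles eIF2, was the highest at 2.26 ± 0.20, and Eif4a1, the helicase of the cap complex, was at 1.63 ± 0.24. Pabpc1, the poly(A)-binding protein, was the lowest of this list. It had 850, 691, 750 and 929 polysomal CPM and 5942, 5340, 2954 and 5911 sub-polysomal CPM, so that the fractions did not overlap and its log2 ratio was −2.60 ± 0.34.

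**Figure D3:**
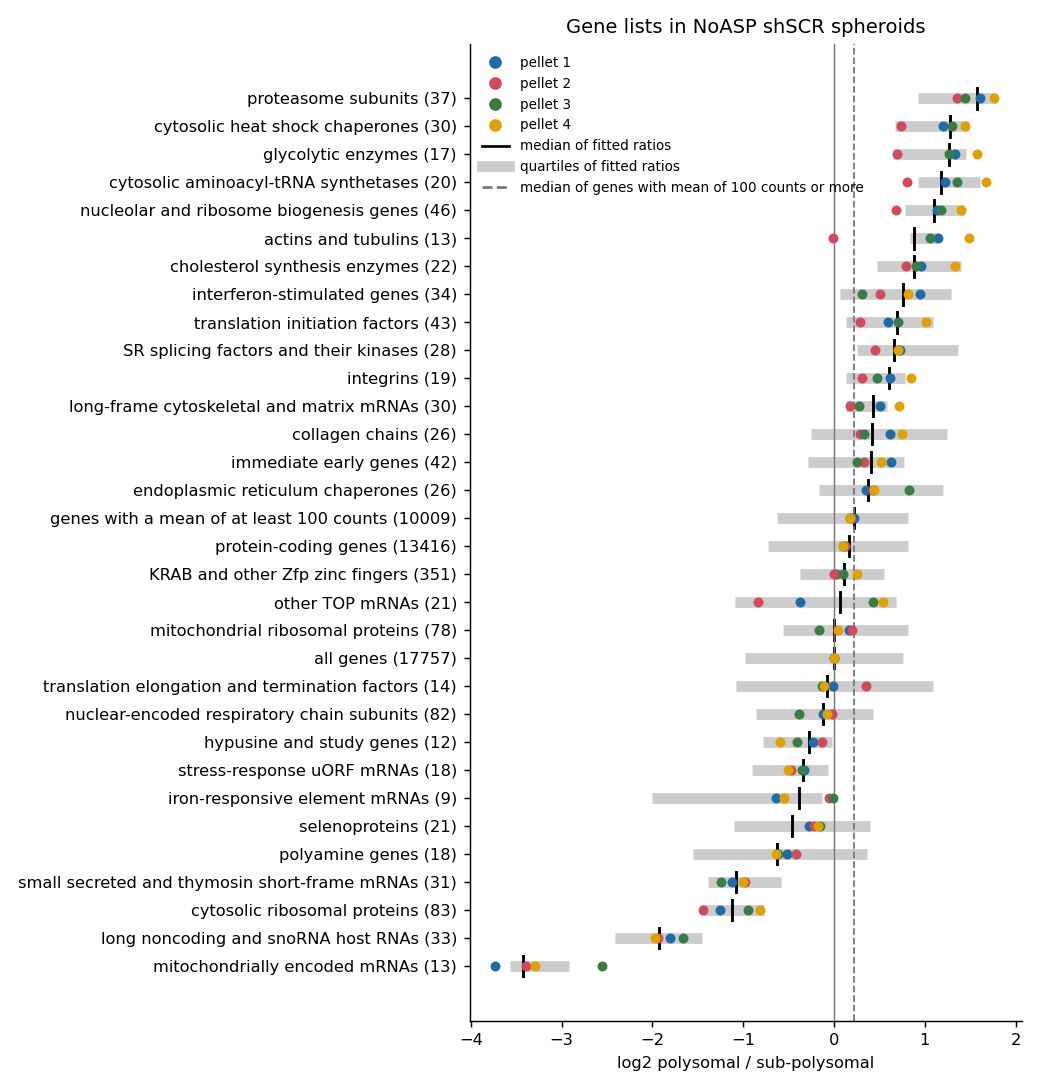
Median log2 polysomal to sub-polysomal ratio of 29 gene lists and 3 background sets (horizontal axis), with the number of genes measured in parentheses; dots are the medians of the 4 pellets, black bars the medians of the fitted ratios and grey bars their quartiles. The lists run from mitochondrially encoded mRNAs at −3.42 to proteasome subunits at 1.57, and the dots of the other TOP mRNAs spread from −0.84 to 0.54.

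Most ribosomal protein mRNAs were lower in the polysomal fraction. Of 83 measured cytosolic ribosomal protein genes, 69 were lower, 2 were higher and 12 did not pass the test. The median log2 ratio was −1.13, with pellet medians of −1.26, −1.44, −0.95 and −0.82. Together they made up 15.04%, 15.9%, 14.9% and 10.7% of the sub-polysomal libraries and 7.00%, 7.02%, 7.87% and 5.99% of the polysomal ones. The share was lower in 4 of 4 pellets (exact paired permutation p = 0.125), and the lowest sub-polysomal share was that of pellet 4. Rplp0, the large-subunit stalk protein, had 5643, 6096, 3942 and 3590 sub-polysomal CPM and 681, 680, 644 and 571 polysomal CPM. It was 7.31-fold lower on polysomes (log2 −2.87 ± 0.40, adjusted p = 1.9e-06), and its partner Rplp1 was at −2.77. Rpl41, the shortest ribosomal protein with 25 residues, was at −2.51 ± 0.25, and Rps29, with 56, at −2.24 ± 0.23. Length did not order the list: Rplp0 itself has 317 residues and Rpsa (−2.14 ± 0.33) has 295, while Rpl3 (403 residues) had −0.72 ± 0.21, which did not pass without pellet 1 or pellet 2, and Rpl4 (419 residues) −0.74 ± 0.20. The 2 genes that were higher, Rpl7l1 (1.50 ± 0.17) and Rpl36al (0.60), are paralogs of ribosomal protein genes. Salmon, which assigns reads to transcripts, may split reads among copies of ribosomal protein genes and their processed pseudogenes. Whether it did so for these 2 genes or for those that were lower was not tested.

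TOP mRNAs outside the ribosome were divided by gene, while their summed share was lower in every polysomal library than in its partner. The list held 2.57 ± 0.327% of the polysomal and 4.73 ± 0.855% of the sub-polysomal counts (SD, n = 4), lower in 4 of 4 pellets (exact paired permutation p = 0.125, the smallest possible). Of its 21 mRNAs, 9 (42.9%) were lower and 6 were higher, and the median was 0.07, with pellet medians of −0.38 and −0.84 in pellets 1 and 2 and of 0.43 and 0.54 in pellets 3 and 4. The elongation factors Eef2 (−1.67 ± 0.27), Eef1a1 (−1.23 ± 0.31), Eef1g (−1.09) and Eef1b2 (−1.07), the growth-related protein Tpt1 (−2.04 ± 0.22) and the ribosome-bound scaffold Rack1 (−1.32 ± 0.20) fell. Pabpc1 (−2.60 ± 0.34), which is on this list too, was its lowest member. Cnbp, a nucleic acid-binding protein, was the highest at 1.33 ± 0.23, followed by Eef1d, an exchange factor of elongation (1.21), and Btf3 (0.98). Eef1a1, the second most abundant gene of the libraries, had sub-polysomal counts of 312095, 359437, 230701 and 169242 and polysomal counts of 125752, 120518, 139961 and 173860, so that pellet 4 had about as many counts in both fractions. In CPM its polysomal libraries still lay below its sub-polysomal ones in every pellet. Eif5a, the hypusinated elongation factor on which the study centres, did not pass the test (−0.27 ± 0.23), with 1772, 1600, 1445 and 1279 polysomal CPM and 1762, 1353, 2713 and 1707 sub-polysomal CPM, which overlap. Its paralog Eif5a2 was much scarcer and fell (−1.56 ± 0.32). Pelo, a rescue factor of stalled ribosomes, was the highest of the elongation and termination list at 2.13 ± 0.28.

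The pyrimidine run can be seen at the transcript starts. The lines below give, from the RefSeq promoter table (GRCm38.p6), the last 10 bases before the start and the initial 20 bases of the transcript, 5′ to 3′; capitals mark the pyrimidine run from the start base, and the last pair, from 2 of the most polysomal mRNAs, has no such run.
Rps27 (chr3:90213629-90213658, minus strand, log2 −2.09): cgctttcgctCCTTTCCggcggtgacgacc
Rps18 (chr17:33955646-33955675, minus strand, log2 −1.27): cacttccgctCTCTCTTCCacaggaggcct
Rack1 (chr11:48800350-48800379, plus strand, log2 −1.32): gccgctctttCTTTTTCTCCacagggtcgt
Fau (chr19:6057937-6057966, plus strand, log2 −1.09): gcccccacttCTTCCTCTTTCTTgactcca
Rpl15 (chr14:18270967-18270996, minus strand, log2 −0.38): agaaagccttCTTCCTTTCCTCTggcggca
Eif2s3x (chrX:94212632-94212661, minus strand, log2 0.74): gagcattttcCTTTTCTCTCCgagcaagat
Spp1 (chr5:104435101-104435130, plus strand, log2 2.53): gggaggtctgagccaccagcagctcacact
Psmc2 (chr5:21785265-21785294, plus strand, log2 2.27): tacttcctctgtgactctaaaccgaccgga

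A run was called where the start base was C and at least the next 4 bases were C or T, on the transcribed strand only. Of 11444 genes matched to the table by symbol, 355 (3.1%) had such a start. They had 82 members higher and 112 lower and a median log2 ratio of −0.17, against 0.10 for the 11089 genes without it. Of the 62 ribosomal protein genes in the table, 14 had the run at the annotated base, and 13 of these 14 were lower. The 48 ribosomal protein genes whose annotated start did not match had 38 lower and a median of −1.05, against −1.21 for the 14. With the ribosomal and TOP lists left out, the 337 remaining genes with a TOP-like start had a median of −0.11. Their pellet medians were −0.082, −0.0025, −0.039 and −0.0, all above the fitted one. Of these genes, 28.8% were lower against 22.6% of the genes without the run. With a mean of at least 100 counts, the sign of the median turned: 230 such genes had 0.04, with 33.5% higher and 34.3% lower. The 7698 genes without the run at that mean had a median of 0.23, with 38.6% higher and 27.4% lower. The length of the run did not order the genes shown: Rpl15 and Fau both have 13 pyrimidines, at −0.38 and −1.09, and Rps27 has 7, at −2.09.

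Ferritin mRNAs were among the most sub-polysomal of the abundant mRNAs. Fth1, the ferritin heavy chain, had 5867, 8445, 5308 and 5373 sub-polysomal CPM and 582, 881, 1229 and 1070 polysomal CPM, and Ftl1, the light chain, had 5559, 6966, 4916 and 4254 against 539, 634, 877 and 849. Neither gene overlapped between fractions, and pellet 1 was the lowest polysomal library of both. Their log2 ratios were −2.76 ± 0.56 (adjusted p = 0.0002) and −2.91 ± 0.55 (adjusted p = 7.8e-05). The iron exporter Slc40a1, which carries the same kind of hairpin in its 5′ leader, was at −2.004 ± 0.25, with a mean of 2.92 ± 0.40 polysomal CPM and 11.9 ± 2.31 sub-polysomal CPM (SD, n = 4). In the transferrin receptor mRNA Tfrc, whose hairpins lie in the 3′ UTR where they govern stability, the ratio was 0.79 ± 0.20. The hairpin loops and flanks were read from GENCODE M21 transcripts (GRCm38), 5′ to 3′, with the loop in capitals.
Fth1 (chr19:9982732-9982761, plus strand, 5′ UTR): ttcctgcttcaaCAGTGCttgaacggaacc
Ftl1 (chr7:45459778-45459807, minus strand, 5′ UTR): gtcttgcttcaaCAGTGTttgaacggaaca
Slc40a1 (chr1:45925464-45925493, minus strand, 5′ UTR): caacttcagctaCAGTGTtagctaagtttg
Tfrc (chr16:32631710-32631739, plus strand, 3′ UTR): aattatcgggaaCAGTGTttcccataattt

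The search was for the loop CAGTGN with 5 bases before it that pair with the 5 bases after it, G with T allowed, on the sense strand, and 39 of 12499 5′ UTRs (0.312%) held a match. Of the 9 measured genes of the iron-responsive list, 3 were lower, 1 was higher and 5 did not pass the test.

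Short reading frames ran low on polysomes and long ones ran high. Genes were binned by protein length, and the median log2 ratio was −0.89 for proteins under 100 residues (293 genes, 6 higher, 163 lower), −0.41 from 100 to below 200 (1592 genes), 0.01 from 200 to below 400 (3881 genes), 0.30 from 400 to below 800 (4887 genes), 0.43 from 800 to below 1600 (2130 genes) and 0.39 from 1600 residues up (593 genes, 205 higher, 34 lower). Protein-coding genes as a whole had 30.4% higher, 22.7% lower, 53.0% in either direction, and a median of 0.16. In every pellet the median of the shortest bin was below that of the next, which was below that of the third; above 800 residues the pellets differed, since pellets 1 and 4 rose on and pellets 2 and 3 fell. Without the ribosomal protein and mitochondrially encoded genes, the shortest bin had a median of −0.86. Across 9698 genes with a mean of at least 100 counts, Spearman's rho between protein length and ratio was 0.25, a description across genes that share the same 8 libraries.

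**Figure D4:**
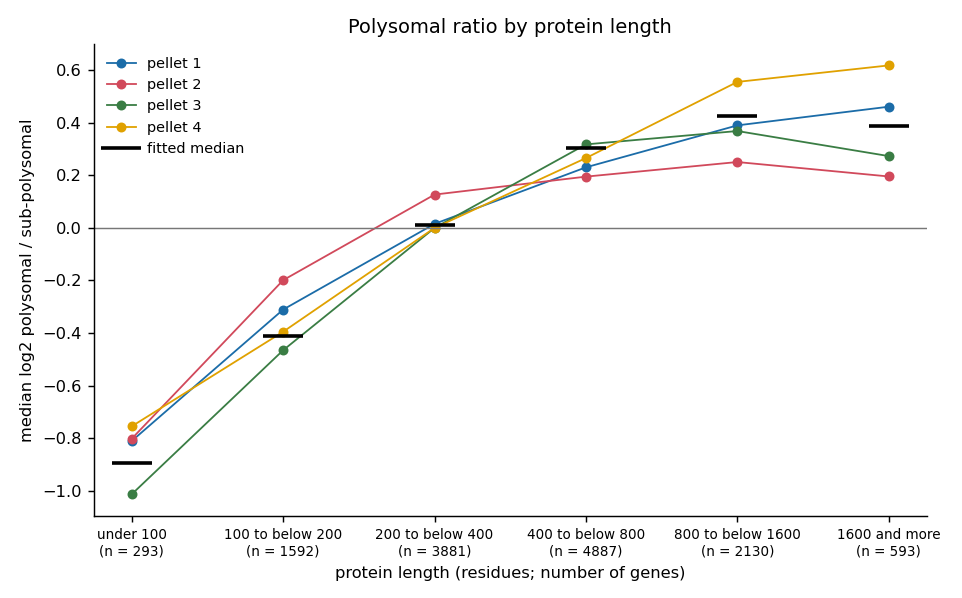
Median log2 polysomal to sub-polysomal ratio (vertical axis) by protein length in residues (horizontal axis, with the number of genes per bin); dots joined by lines are the 4 pellets and black bars the medians of the fitted ratios. The medians climb from −0.89 under 100 residues to 0.43 between 800 and 1600, and above 800 residues the 4 pellets spread apart.

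Named short and long mRNAs showed the same order. Of 31 mRNAs of short secreted, thymosin and small membrane proteins, 23 were lower and 1, Smim15 (0.73 ± 0.20), was higher, with a median of −1.08 and pellet medians between −1.24 and −0.99; Rpl41 belongs to this list too. The actin-sequestering thymosins Tmsb10 (44 residues, −1.64 ± 0.22) and Tmsb4x (44 residues, −1.22 ± 0.23) and Ost4, a 37-residue subunit of oligosaccharyltransferase (−1.66 ± 0.21), fell. Of 30 long cytoskeletal and matrix mRNAs, 14 were higher and none was lower (median 0.43). Lamb3, a chain of laminin, was at 1.29 ± 0.25 and the actin crosslinker Flna at 0.53 ± 0.21 (not past the threshold without pellet 1, 3 or 4), while Plec (−0.31 ± 0.20), a cytoskeletal linker of 4686 residues, and fibronectin, Fn1 (0.07 ± 0.21), did not pass. Length did not order every single gene: Pabpc1, a TOP mRNA with 636 residues, was among the lowest abundant mRNAs.

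Upstream ATGs and GC content moved with the ratio as well, over genes with a mean of at least 100 counts. Genes with no ATG upstream of the coding start had a median of 0.37 (4635 genes), those with 1 had 0.17 (2177 genes), those with 2 to 4 had 0.10 (2047 genes) and those with 5 or more had 0.08 (725 genes). Transcripts of 58% GC and more had a median of −0.33, with 495 of 1076 lower, and those of 42 to 46% GC had a median of 0.42, with 781 of 1659 higher. Spearman's rho with the ratio was −0.12 for upstream ATGs and −0.18 for GC, but only 0.062 for transcript length. These properties are not independent of each other or of protein length, and the part each has in the ratio was not tested.

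Among 18 mRNAs of the stress response known for upstream reading frames, 7 were lower (38.9%), 2 were higher (11.1%) and 9 did not pass the test. Genes with a mean of at least 100 counts had 28.1% lower and 38.2% higher. The median of the list was −0.34. Atf4, the effector of the integrated stress response, had 467, 385, 477 and 370 sub-polysomal CPM and 176, 145, 199 and 137 polysomal CPM, a log2 ratio of −1.38 ± 0.19 without overlap. Atf5 (−1.29 ± 0.17), Ddit3, which encodes CHOP (−1.17 ± 0.20), and Cebpg (−1.51 ± 0.25) lay alongside. Ppp1r15a (−0.36 ± 0.18), which encodes GADD34, and Ifrd1 (−0.05 ± 0.19) did not pass, and Eprs (0.88 ± 0.20) and Trib3 (0.55) were higher.

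Polyamine genes, which supply the spermidine that hypusine is made from, held some of the most sub-polysomal enzymes. Odc1, ornithine decarboxylase, had 848, 725, 554 and 800 sub-polysomal CPM and 135, 129, 249 and 146 polysomal CPM. Its fractions did not overlap, the log2 ratio was −2.20 ± 0.43, and pellet 3 had the smallest difference. Amd1, which decarboxylates S-adenosylmethionine for polyamines, was at −2.03 ± 0.25; its near-identical copy Amd2 (−1.96) may share its reads. Oaz1, the antizyme that inhibits ornithine decarboxylase, was at −1.69 ± 0.18, Srm, spermidine synthase, at −0.80, and Azin2, an antizyme inhibitor, at −2.46 ± 0.30. Azin1, the other antizyme inhibitor, went the other way (0.91 ± 0.17). In all, 9 of 18 were lower, 3 were higher and the median was −0.63.

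Among 12 genes of the hypusine and TGF-β pathway under study, 4 were lower (Eif5a2, Tgfb1, Tgfbr2 and Tgfbr1), 1 was higher and 7 did not pass the test. The shares were 33.3% lower and 8.33% higher. Genes with a mean of at least 100 counts had 28.1% lower and 38.2% higher. Tgfb1, the cytokine, had 275, 245, 224 and 236 sub-polysomal CPM and 82.7, 84.0, 93.9 and 75.6 polysomal CPM, with a log2 ratio of −1.54 ± 0.23, and its receptors Tgfbr2 and Tgfbr1 were at −1.30 and −0.62. Dhps (−0.21 ± 0.20), Dohh, the hydroxylase that completes hypusine (0.16 ± 0.18), Creb1 (−0.27 ± 0.21) and Smad3 (−0.33 ± 0.18) had overlapping fractions. Grin2d had a mean of 69.1 counts and −0.08 ± 0.29, so a modest difference was not detectable at this depth. Among 26 collagen chains, 9 were higher and 1 was lower. Col18a1 (1.66 ± 0.28), Col4a1, a basement membrane chain (1.14 ± 0.27), and Col6a1 (1.05 ± 0.26) were higher, and Col1a1, with a mean of 7.13 counts, could not be judged (0.30 ± 1.01). Of 19 integrins, 9 were higher and none was lower, led by Itgb1 (1.57 ± 0.18), the beta chain shared by most matrix receptors.

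Glycolytic enzymes, actins and tubulins, and cholesterol synthesis enzymes had more members higher than lower. Of 17 glycolytic enzymes, 13 were higher and none was lower (median 1.26), with Aldoc (1.73 ± 0.23), Aldoa (1.42 ± 0.25), Ldha (1.42 ± 0.20) and Eno1 (1.26 ± 0.29) among them and Gapdh (0.47 ± 0.30) not past the threshold. Actb had 3649, 2009, 3006 and 4688 polysomal CPM and 1128, 737, 1019 and 1281 sub-polysomal CPM, a log2 ratio of 1.64 ± 0.21, and 8 of the 13 actins and tubulins were higher. Their pellet medians ranged from −0.01 in pellet 2 to 1.49 in pellet 4. Cholesterol synthesis enzymes had 15 of 22 higher (median 0.88), led by Idi1 (1.92 ± 0.19), while Insig1 (−1.66 ± 0.21), which restrains the pathway, fell. Of 34 interferon-stimulated genes 17 were higher and 2 lower (median 0.76), and of 28 SR splicing factors and their kinases 16 were higher and 1 lower (median 0.66), with Srsf7 at 1.95 ± 0.18 and Srsf9 at −2.03 ± 0.26. Immediate early genes were split, with 18 of 42 higher, 7 lower and a median of 0.41: Myc was at 1.17 ± 0.22 and Jun at 0.82 ± 0.23, and Jund, of the same family, at −2.76 ± 0.38. The 351 Zfp zinc finger genes had 56 higher, 54 lower and a median of 0.11. Selenoproteins, which decode a stop codon as selenocysteine, had 7 of 21 lower and 4 higher. Their median was −0.46 from the fit, outside the range of the pellet medians (−0.28 to −0.15). The lowest was Selenow (−2.75 ± 0.24), the peroxidases Gpx4 (−1.76 ± 0.22) and Gpx1 (−1.10 ± 0.23) were lower too, and Txnrd1 (0.63 ± 0.19) and Selenoi (1.02 ± 0.18) were higher.

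In the Hallmark collection of 50 gene sets deposited with the counts, the median ratio of 41 sets lay above that of the genes with a mean of at least 100 counts. The highest were fatty acid metabolism (0.95, with 81 of 135 genes higher and 12 lower), MYC targets V2 (0.89, 37 of 58 higher) and V1 (0.85, 124 of 201 higher), mTORC1 signalling (0.80, 114 of 196 higher) and E2F targets (0.79, 129 of 199 higher). The lowest were heme metabolism (−0.16, 45 of 168 higher and 59 lower) and TGF-β signalling (−0.06, 17 of 51 higher and 18 lower). These sets share many genes, and no set was tested against another.

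The mRNAs of the mitochondrial genome and most of the listed noncoding RNAs were at the low end. Mitochondrially encoded mRNAs, which are translated by the ribosomes of the organelle, were lower in 13 of 13 cases with a median of −3.42 and pellet medians of −3.74, −3.39, −2.56 and −3.29. They made up 4.80%, 5.33%, 5.21% and 7.82% of the sub-polysomal libraries and 0.487%, 0.709%, 1.01% and 0.849% of the polysomal ones (lower in 4 of 4 pellets, exact paired permutation p = 0.125). mt-Co2, a subunit of cytochrome c oxidase, had 2446, 2782, 2242 and 3340 sub-polysomal CPM and 115, 238, 316 and 296 polysomal CPM, an 11.8-fold difference. mt-Nd6, the gene on the other strand, had the least negative ratio (−0.94 ± 0.24). Nuclear copies of mitochondrial sequence such as Gm28661 (−3.45 ± 0.38) followed them, and reads of the mitochondrial genes may be split with these pseudogenes, which held 2.25 ± 0.36% of the sub-polysomal counts (SD, n = 4).

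**Figure D5:**
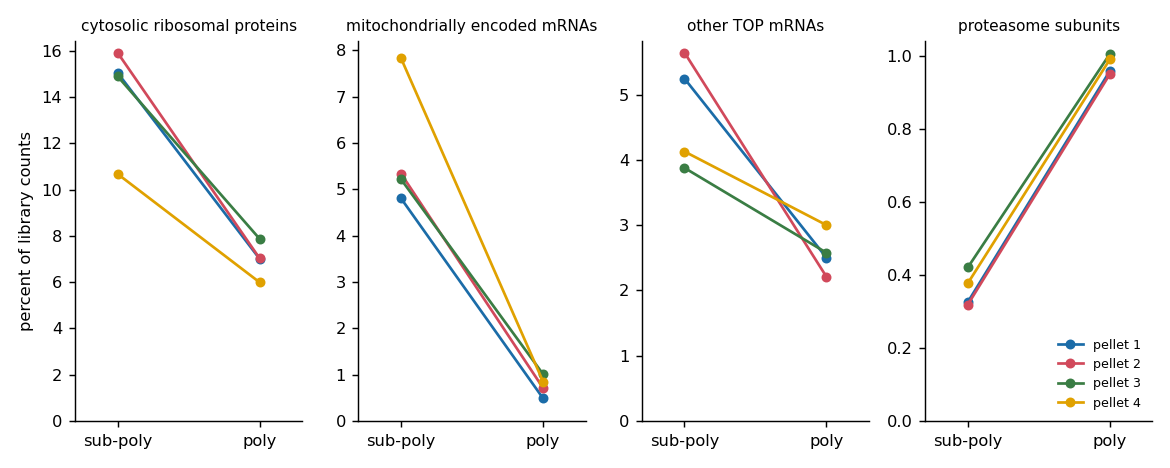
Share of the library's counts, in percent (vertical axes from 0, a different scale in each panel), held by 4 gene lists in the sub-polysomal and polysomal library of each pellet; a line joins the libraries of 1 pellet. Ribosomal protein, mitochondrially encoded and other TOP mRNAs hold a smaller share of the polysomal library in each of the 4 pellets, and proteasome subunits a larger one.

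Long noncoding RNAs and the hosts of small nucleolar RNAs were lower in 26 of 33 cases and higher in none (median −1.93). Gas5, a snoRNA host, had 177, 208, 273 and 141 sub-polysomal CPM and 25.2, 32.5, 54.7 and 34.1 polysomal CPM, a log2 ratio of −2.46 ± 0.27. Snhg8 (−3.07 ± 0.31), Zfas1 (−2.41 ± 0.28), and the nuclear RNAs Neat1 (−1.76 ± 0.21) and Malat1 (−1.69 ± 0.31) were lower too; Tug1, the most abundant of the list, did not pass (−0.26 ± 0.18). By biotype, long noncoding genes of GENCODE with a mean of at least 100 counts had 78 of 115 lower and 7 higher (median −1.09), against 2641 of 9707 protein-coding genes lower. Nuclear genes for mitochondrial proteins were split: the 78 mitochondrial ribosomal proteins had 27 higher and 22 lower (median 0.00) and the 82 respiratory chain subunits 16 higher and 30 lower (median −0.13). Within the chain, Atp5b (529 residues) was at 1.27 ± 0.20 and Ndufa9 (377 residues) at 1.94 ± 0.19, while Cox8a (69 residues) was at −1.97 ± 0.20 and Cox7c (63 residues) at −0.99 ± 0.24. Ndufa4, also short (82 residues), had a positive ratio of 0.53 ± 0.27, which did not pass the test.

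The lowest genes of all were mitochondrial and nuclear. Mitochondrially encoded genes took 8 of the 12 lowest places by the naming rule (mt-Nd3, mt-Atp6, mt-Nd1, mt-Co2, mt-Atp8, mt-Nd2, mt-Nd4l and mt-Co3), and the nuclear genes Exosc6, Entpd4, Ccm2 and Nkain1 took the other 4. Exosc6, a subunit of the RNA exosome, had 0 counts in every polysomal library and 71 to 456 counts in the sub-polysomal ones, so it was at least 91.8-fold lower against a floor of 3 counts per library. Entpd4 (−3.87 ± 0.55), a nucleotidase, has a close paralog with which it may share reads. Ccm2, a scaffold protein of endothelial junction signalling, had 259, 237, 175 and 204 sub-polysomal CPM and 20.7, 19.5, 28.9 and 20.6 polysomal CPM, a 9.79-fold difference. The list of low nuclear genes was extended after the values were seen. Its next members in order include Irak1, a kinase of interleukin-1 and Toll-like receptors (−3.20 ± 0.39, 710 residues), Gas2l1, a linker of actin and microtubules (−3.13 ± 0.43), Adipor1, an adiponectin receptor (−3.12 ± 0.46), Traf4 (−3.08 ± 0.47), the noncoding Snhg8, the sialyltransferase gene St6galnac6 (−3.06 ± 0.45), Lmo1 (156 residues, −3.04 ± 0.41) and B4galt2, a galactosyltransferase (−3.01 ± 0.43).

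Finally, the baseline was set beside the other 3 conditions. The ratio of NoASP shSCR differed from the mean of the other 3 in 0 genes by edgeR's quasi-likelihood test at an adjusted p under 0.05, with 253 genes at an unadjusted p under 0.05; DESeq2's Wald test also gave 0. Against the single conditions, edgeR called 0 genes each, with 343 (ASP shSCR), 195 (ASP shGRIN2D) and 1245 (ASP shDHPS) genes at an unadjusted p under 0.05, and DESeq2 called 0, 0 and 55. Of the 4208 genes higher in NoASP shSCR, 80.0% were also higher in ASP shSCR, 87.7% in ASP shGRIN2D and 78.3% in ASP shDHPS; the shared genes were 91.1%, 90.2% and 85.2% of the lists of those conditions. Called in opposite directions were 0, 0 and 18 genes. The 4 conditions had 2661 higher and 2517 lower genes in common. Ribosomal protein mRNAs had medians of −1.13, −1.17, −1.02 and −0.68 in NoASP shSCR, ASP shSCR, ASP shGRIN2D and ASP shDHPS, proteasome subunits 1.57, 1.403, 1.75 and 1.63, and mitochondrially encoded mRNAs −3.42, −2.58, −3.87 and −3.96. These differences between lists were not tested. On the axis between the fractions, 1 polysomal library of another condition (ASP shSCR, replicate 1) stood at 0.445, apart from the others, and it enters the ASP shSCR values. The genes with the smallest p for the difference included Entpd4 (−3.87 against −1.63, −1.90 and −1.26 in the other 3 conditions), mt-Nd6 (−0.94 against −1.32, −2.05 and −2.57) and Ccdc191 (1.08 against 0.15, 0.09 and −0.16), each with an adjusted p of 1.0.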

How the data were processed

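Polysomal and sub-polysomal RNA of 4 pellets in each of 4 conditions was analysed as deposited counts per gene (17757 genes, 32 libraries). Per the labels and the study's methods, the authors trimmed reads with Trim Galore 0.6.6, checked them with FastQC 0.11.9, aligned them to GRCm39 with STAR 2.6.1, quantified them with Salmon 1.4.0, rounded the estimates to whole counts, left out genes with little expression and tested with DESeq2 1.34.0. Read totals lie between 12870563 and 21649049 in the 8 libraries described.

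From the counts, edgeR 4.0.16 (R 4.3.3) fitted all 32 libraries with TMM scaling, a term for each pellet and a fraction term for each condition, by its quasi-likelihood test with Benjamini-Hochberg adjustment over all genes. Replicate numbers pair the fractions because both came from the same pellet, and the study's own model holds the pellet too. The pellets of a condition are independent spheroid pellets of 1 cell line, so p-values measure the spread between such pellets. CPM are TMM-scaled, and pellet ratios use a prior count of 2. A group median is over fitted log2 ratios. Shares were tested with exact paired permutation tests.

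Genes were matched by ID to GENCODE M21 (GRCm38; 17312 genes, 97.5%), which differs from the build of the counts and was used for lengths, sequences and coordinates. Protein lengths come from GENCODE coding sequences; the plan had named RefSeq proteins, which were not used here, and for some genes, such as Ahnak (150 residues), the transcript taken is a short isoform. Named are, in each direction, the 12 genes with the largest ratio (past the threshold, a mean of at least 100 counts, 1 sign in 4 pellets, no predicted-gene name), key genes, the most abundant and the extreme members of each of 29 lists, the 10 most abundant genes, and the smallest p between conditions; other genes named within a list were picked after their values were seen. Members and lists were chosen with earlier results of these data known. On simulated counts of 17757 genes, 67, 67 and 66 genes with a mean of at least 100 counts were changed 1.5-fold, 2-fold and 4-fold. The ratio test found 16.4%, 73.1% and 100% of them, with 9 false calls. The test of the difference from the other conditions found 7.5%, 52.2% and 100%, with 11 false calls. No other gene differed between the simulated fractions, whereas 7866 genes passed the ratio test in the real libraries. The shares for the ratio test therefore describe the simulation only. DESeq2 1.42.0, other scalings and filters, the fit without the block and leaving out replicates were tried. Results for some genes are not reported here.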

Additional observations from a re-analysis of the deposited data

Results flagged for a closer look

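Within the 4 pellets, a value was singled out when its gap to the nearest other pellet was, as a share of the whole range, above Dixon's 95% critical value for groups of 4. Of 252 groups of 4 tested, 13 met this, where chance gives about 12.6 (1 in 20). Pellet 3 accounted for 7, pellet 2 for 4, and pellets 1 and 4 for 1 each.

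In pellet 3, the log2 ratios of the mitochondrially encoded mt-Cytb (−2.43, others −3.15 to −3.04) and mt-Co1 (−2.13, others −2.84 to −2.73) were less negative than in the other pellets. The same held for Odc1 (−1.16, others −2.65 to −2.45), Btg1, an antiproliferative immediate early gene (−1.35, others −1.67 to −1.63), and Atf4 (−1.26, others −1.43 to −1.41), while Atf5 was more negative (−1.44, others −1.25 to −1.22). Rn18s-rs5, an 18S ribosomal RNA-related gene with the most counts of all, was at 2.39 in pellet 3 and at 0.98 to 1.17 in the others.

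In pellet 2, the median of the SR splicing factors was 0.45 (others 0.70 to 0.73) and that of proteins of 200 to below 400 residues was 0.13 (at most 0.02 in the others). Smox, spermine oxidase, was at −0.31 in pellet 2 (others −0.58 to −0.54), and Ahnak, a scaffold protein, at −0.035 (others 0.36 to 0.43). The mitochondrially encoded mt-Nd4l was at −4.96 in pellet 4 (others −3.08 to −2.87), and Srsf2 at 1.65 in pellet 1 (others 1.32 to 1.35).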

How the results depend on the processing

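Over the 12 settings in which the named genes were refitted, none of the 2367 values of 198 genes reversed. In these, 2301 values kept their side of the threshold, 29 lost the call and 37 gained it. Group medians were also taken under further settings for the length bins alone, such as single pellets. In all, 428 of 468 values of 36 group medians stayed within 1 SD between pellets. In 13 values, medians near 0 changed sign: those of the mitochondrial ribosomal proteins, the other TOP mRNAs (−0.26 without replicate 4), the elongation and termination factors (0.07 without replicate 3) and the Zfp genes. Without the replicate block, 4086 genes were higher and 3689 lower, against 4208 and 3658 with it, and 0 differed from each other condition or their mean. Flna lost its call without the block (log2 ratio of Flna 0.61) and without replicate 1, 3 or 4 (0.33 to 0.58), Rpl3 without replicate 1 or 2 (log2 ratio of Rpl3 −0.64 and −0.54), and Rn18s-rs5 without replicate 2 or 3 (log2 ratio of Rn18s-rs5 1.44 and 1.04). Testing for a change beyond 1.5-fold left 2221 higher and 2362 lower genes. The ratios of NoASP shSCR and ASP shDHPS differed in 0 genes, but in 4 with at least 10 counts in each NoASP shSCR library. They differed in 55 by DESeq2's Wald test and in 4 without ASP shSCR replicate 1 (0 to 4 over the replicates left out). The cause was not tested. The medians below are less that of all genes (for length bins, of genes with a protein length, and for TOP-like starts, of genes in the start table), which a filter on low counts raises. With at least 10 counts, they were −0.16 (mitochondrial ribosomal proteins), −0.29 (respiratory chain), −2.20 (long noncoding RNAs), −0.51 (upstream frames), −0.96 (polyamine genes), −0.064 (Zfp genes), 0.88 (collagens), −0.63 (selenoproteins), 0.49 (SR factors), −1.25 (short-frame mRNAs) and −1.17 (proteins under 100 residues). With edgeR's filterByExpr they were −0.45 (upstream frames), −0.88 (polyamine genes), 0.87 (collagens), −0.36 (selenoproteins) and −0.31 (TOP-like starts, −0.30 by DESeq2). Leaving out replicates gave 0.40 to 0.71 for collagens, 0.38 to 0.58 for immediate early genes, −2.08 to −1.94 for long noncoding RNAs, −0.69 to −0.48 for polyamine genes, −0.56 to −0.38 for selenoproteins and −0.51 to −0.32 for upstream frames. By pellet alone, medians under 100 residues were −0.94, −0.93 and −0.85 in pellets 1, 2 and 4, against −1.06 from the fit, and from 100 to below 200 −0.44 and −0.33 in pellets 1 and 2. From 200 to below 400 they were −2.92e-05 in pellet 2, −0.098 in pellet 3 and −0.099 in pellet 4. From 400 to below 800 they were 0.068 and 0.22 in pellets 2 and 3, from 800 to below 1600 0.12 and 0.46 in pellets 2 and 4, and from 1600 up 0.52 in pellet 4. With a mean of at least 100 counts, an alternative chosen after seeing the data, the shortest bins had −1.23 and −0.68. Depth limits the scarce genes, such as Grin2d and Col1a1.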
